A study of Homo sapiens with 6 samples.

Results

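A pair of short hairpin RNAs against 1 long noncoding RNA was compared directly, shRNA2 against shRNA1, on 4 arrays of the 6 in the series, over all probe sets with exactly 1 gene symbol. The cells were MDA-MB-231-Luc-D3H1, a form of the triple-negative human breast cancer line MDA-MB-231 that carries luciferase, and the target was LincIN, an intergenic transcript next to the integrin gene ITGB1. The shRNA1 cells and the shRNA2 cells were stable lines made with a GFP vector, and each line gave 2 arrays. Another stable line with the empty GFP vector, again with 2 arrays, was used to say which of the shRNAs had moved away from the control. All 3 lines carry the luciferase and the GFP vector, no other treatment is given, and the labels do not say whether a line is 1 clone. RNA was collected in 2 independent experiments, but no label ties an array to an experiment.

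A short hairpin RNA is cut into a small guide RNA that leads the silencing complex to matching transcripts. Hairpins against 1 target share that target but not their guide, and a guide can also act on other transcripts that match its seed. Here the extent of the knockdown, the guide sequence and the stable line each change together from shRNA1 to shRNA2 and cannot be told apart.

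Each array holds 53617 probe sets with log2 values from 1.79 to 14.8 and without a detection call, so dim signals were not separable from background. In bulk RNA, fewer cells with a transcript and less of it per cell cannot be told apart. The probe annotation pairs 16098 probe sets with exactly 1 gene symbol, which stand for 14884 genes. LincIN had no named probe set, and the knockdown itself could not be checked here. The array medians lay between 6.12 and 6.30, with the highest on shRNA1 array 1. The SD of the difference between the 2 arrays of a group was 0.231 with shRNA2, 0.395 with shRNA1 and 0.397 in vector cells. The shRNA2 arrays correlated with each other at 0.988 and the shRNA1 arrays at 0.970, while each shRNA1 array correlated at 0.979 with the vector array of its own number. These correlations run across probe sets, and probe sets are no replicates. As a check of the label, the mesenchymal gene VIM had values at its brightest probe set from 11.2 to 11.4 and CD44 from 10.6 to 11.4, the keratin KRT18 lay between 11.2 and 11.6 and KRT8 between 7.10 and 7.91, whereas the estrogen receptor gene ESR1 lay between 5.71 and 6.17 and the progesterone receptor gene PGR between 4.65 and 4.93. The lists of endothelial, fibroblast and hematopoietic markers, with 11, 5 and 10 members measured, had no member with p under 0.001 between the shRNAs. At a background of 0.524% higher and 0.47% lower over 1 probe set per gene, lists this short would rarely hold any.

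The shRNAs differed at 1 probe set after adjustment and at a broad set of genes at the unadjusted threshold. The group means were fitted with limma, with Benjamini-Hochberg adjustment across all 16098 probe sets. At an adjusted p under 0.05, 1 probe set was called (0.00621%), the microRNA gene MIR539, which was lower with shRNA2. The next lowest adjusted p was 0.0515 and was shared by 15 probe sets. At an unadjusted p under 0.001, a threshold the study used for its comparisons with vector, 165 probe sets were called (1.02%), 82 higher with shRNA2 (0.509%) and 83 lower (0.516%), where 16.1 would be expected with no change at all. They stand for 80 genes on the higher and 74 on the lower side, and the smallest difference among them was 0.77 in size on the log2 scale. In all 165, both shRNA2 arrays lay on the same side of both shRNA1 arrays. This follows largely from choosing them by p on the same arrays, so it is no further support. Below, "higher" and "lower" refer to shRNA2 relative to shRNA1, and p without the word adjusted is the limma p of this contrast, of which only that of MIR539 passed adjustment in this fit, which has no replicate block. With shRNA2 array 1 or 2 left out, 26 or 24 of the 165 probe sets kept a p under 0.001, and with shRNA1 array 1 or 2 left out 60 or 72 did. The totals at that threshold were then 31, 27, 83 and 136, and 0 were called after adjustment in each case.

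The balance of directions depended on the scaling. The median difference over all named probe sets was -0.08, with an SD of 0.343. Centring each array on its median moved this median to 0.03, a shift of 0.104 that applies to every difference below, and the split at p under 0.001 from 82 higher and 83 lower to 114 higher and 58 lower. Quantile normalization of the values gave 103 higher and 65 lower. All 165 probe sets kept their sign under both scalings. With centring this was fixed in advance, because the smallest difference among them, 0.77 in size, is larger than the shift. Medians of lists that lie within that shift of 0 have no settled direction.

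**Figure D1:**
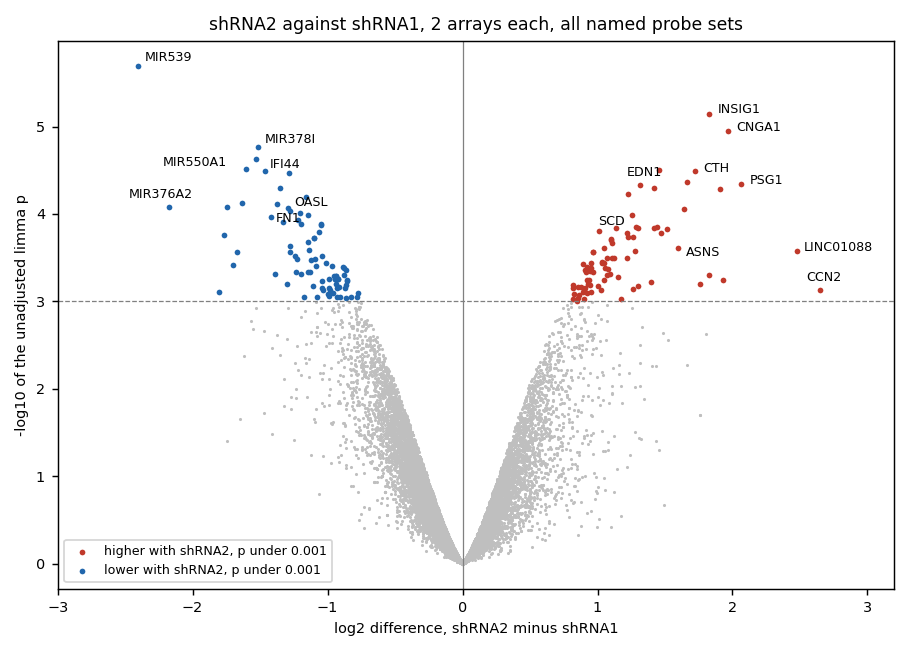
Log2 difference of shRNA2 minus shRNA1 (horizontal axis) against -log10 of the unadjusted limma p (vertical axis) for 16098 probe sets; the dashed line marks p of 0.001, past which 82 probe sets are higher (red) and 83 lower (blue). MIR539 stands alone at the top left, and INSIG1 and CNGA1 have the lowest p on the right.

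MIR539 lies in the large microRNA cluster of chromosome band 14q32, an imprinted region whose microRNAs are cut from the transcripts of the maternal chromosome. The mature forms of the 3 cluster genes with p under 0.001 are shown because a microRNA acts through its seed, bases 2 to 8, which is in capitals. The sequences are those of RefSeq (GRCh38.p14, plus strand).
miR-539-5p, chr14:101047329-101047350: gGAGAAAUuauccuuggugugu
miR-539-3p, chr14:101047369-101047390: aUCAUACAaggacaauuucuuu
miR-376a-2-5p, chr14:101040080-101040100: gGUAGAUUuuccuucuauggu
miR-376a-3p, chr14:101040118-101040138: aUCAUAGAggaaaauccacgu
miR-412-5p, chr14:101065465-101065487: uGGUCGACcaguuggaaaguaau
miR-412-3p, chr14:101065500-101065522: aCUUCACCugguccacuagccgu

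MIR539 had log2 values of 7.71 and 7.66 in vector cells, 7.78 and 7.96 with shRNA1, and 5.64 and 5.29 with shRNA2. Only the shRNA2 arrays stood apart, and the vector arrays lay just below the shRNA1 arrays. The difference was -2.41 (standard error 0.17, 95% interval -2.81 to -2.00, limma adjusted p = 0.0324), a 5.30-fold lower signal. MIR376A2 had values of 5.13 and 5.49 with shRNA1 and 3.35 and 2.93 with shRNA2, with 4.70 and 5.39 in vector cells. Again the shRNA2 arrays alone were low, with a difference of -2.17 (standard error 0.27, adjusted p = 0.0584). MIR412 went the other way, with 7.50 and 7.58 with shRNA2 against 6.64 and 6.56 with shRNA1 and 6.58 and 6.36 in vector cells, a difference of 0.94. All of these are signals of probe sets on the precursor gene, and the amount of mature microRNA was not measured.

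The cluster held no other difference as large as those of MIR539 and MIR376A2, and the next lowest was -0.92. Of its 53 microRNA genes in RefSeq, 52 were measured, 37 with a difference below 0 and 15 above (27 and 25 with centred arrays), and their median was -0.14 beside -0.08 over all probe sets. At p under 0.05, 15 of the 52 were lower and 1 higher (background 10.2% lower and 5.42% higher). MicroRNA genes as a class were also shifted. Of 1089 recognized by name, 745 had a difference below 0 (637 with centred arrays). At p under 0.05, 233 of them were lower and 45 higher, and the median was -0.18. The immediate neighbours of MIR539 were MIR889 with a difference of -0.06 (95% interval -0.48 to 0.36) and MIR487B with -0.46 (95% interval -1.04 to 0.12). MIR377 had a difference of -0.84, MIR487A of -0.66 and MIR544A, which follows MIR889, of -0.62, and 0 of these passed adjustment. MEG3, a long noncoding RNA of the maternal chromosome, had -0.39 (95% interval -0.80 to 0.02), MEG9 had -0.49 and the paternally expressed gene RTL1 had -0.51. MIR485, which has the seed of miR-539-3p, had a difference of 0.00, and MIR376A1 and MIR376B, which have the seed of miR-376a-3p, had 0.11 and -0.92. MIR376A1 also lay near the low end, with values from 2.34 to 2.61.

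**Figure D2:**
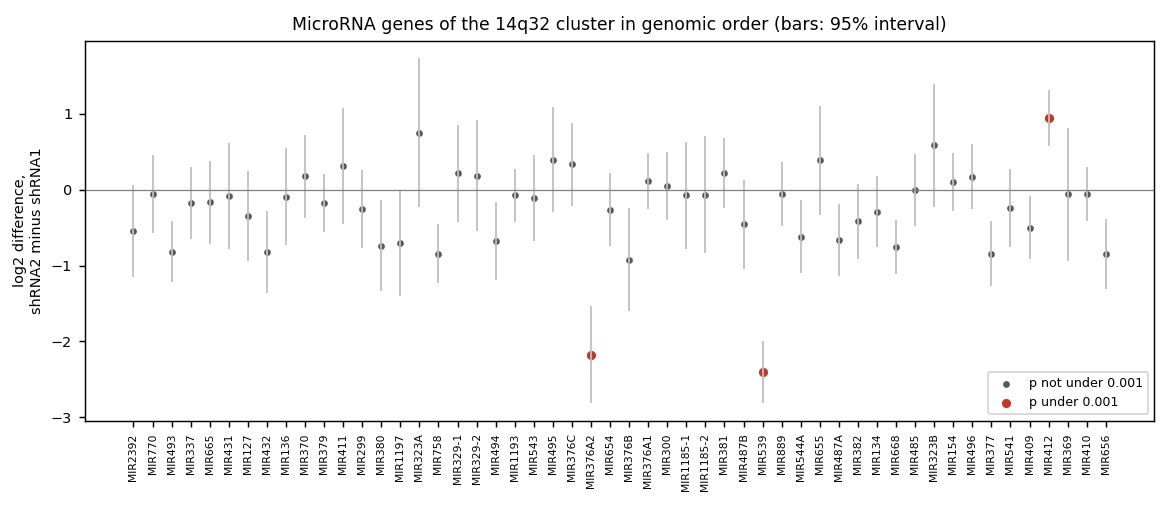
Log2 difference of shRNA2 minus shRNA1 (vertical axis) for the 52 measured microRNA genes of the 14q32 cluster in genomic order, with 95% intervals as bars and p under 0.001 in red. MIR539 at -2.41 and MIR376A2 at -2.17 lie far below neighbours that mostly span 0, and MIR412 at 0.94 lies above them.

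Other microRNA genes were mostly on the lower side as well. Of 1236 microRNA probe sets, 32 (2.59%) were lower and 9 (0.728%) higher at p under 0.001, beside 0.516% and 0.509% over all probe sets, and 24 lower and 11 higher with centred arrays. Their median difference was -0.18 and their median log2 level 5.38, below the 7.51 of protein-coding genes, so many sit near the low end of the scale. MIR3137 and MIR4435-1 on the lower side and MIR3118-4 on the higher each count with 2 probe sets of identical values. Counted once per gene at its brightest probe set, 29 of 1089 recognized by name were lower and 8 higher. Of the 38 microRNA genes among the 165 probe sets, 34 matched a RefSeq mature sequence, and 0 seeds were shared by different genes among them. Among those at p under 0.001 outside the cluster, the largest were -1.81 for MIR1302-7, -1.70 for MIR4747, -1.67 for MIR373, -1.63 for MIR552, -1.60 for MIR550A1, -1.53 for MIR4684 and -1.52 for MIR378I.

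Relatives with the same seed went the same way in some families and not in others. As examples, miR-550a, miR-98 and miR-9 are shown. Their mature sequences from RefSeq (GRCh38.p14), again with the seed in capitals, are given because each seed is shared with other measured genes.
miR-550a-5p, chr7:30289815-30289837, plus strand: aGUGCCUGagggaguaagagccc
miR-98-5p, chrX:53556299-53556320, minus strand: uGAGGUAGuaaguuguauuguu
miR-9-5p, chr1:156420392-156420414, minus strand: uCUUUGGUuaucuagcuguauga
MIR550A1 had 5.90 and 5.59 with shRNA1, 4.03 and 4.25 with shRNA2, and 5.91 and 5.98 in vector cells, so the shRNA2 arrays alone were low. The brighter probe set of its near-identical copy MIR550A2 had a difference of -1.08 and that of MIR550A3 -0.77. A second probe set of MIR550A1 had 0.34, and how the probes of these copies were assigned is not known, so the family is uncertain. MIR98, a member of the let-7 family, had a difference of -1.05, whereas the 12 other measured genes with its seed ranged from -0.56 to 0.93 with a median of 0.10. MIR9-1 had a difference of -1.22, and MIR9-3, which gives the same mature sequence, had 0.88. In other families the relatives were lower as well. MIR3689F had -1.18, and the 3 other measured genes with its seed ranged from -1.65 to -1.32. MIR516B2 had -1.21, and MIR516B1, with the seed of miR-516b-5p, had -0.99.

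Several amino acid synthesis genes were higher with shRNA2. ATF4 is the transcription factor through which cells answer amino acid shortage and other stress, and its targets include the enzymes that make asparagine, serine and cysteine as well as many tRNA synthetases. Of 8 measured synthesis genes, 2 were higher at p under 0.001 and 0 lower (background over 1 probe set per gene 0.524% higher and 0.47% lower), and 5 were higher at p under 0.05 (background 5.55%). Their median difference was 0.72 beside -0.07 over all genes. Against vector their median was 0.15 with shRNA1 and 0.95 with shRNA2. CTH, which makes cysteine from cystathionine, had 7.78 and 8.24 with shRNA1, 9.73 and 9.72 with shRNA2, and 8.49 and 8.61 in vector cells. The vector arrays lay between the shRNAs, and the difference was 1.72 (standard error 0.19, adjusted p = 0.0515), a 3.29-fold higher signal.

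ASNS, the asparagine synthetase, had 8.49 and 8.78 with shRNA1, 10.18 and 10.28 with shRNA2, and 7.86 and 8.52 in vector cells. Here vector and shRNA1 overlapped and shRNA2 alone was high, with a difference of 1.60 (standard error 0.24, adjusted p = 0.0701). The 3 enzymes of the serine pathway stood in the same direction without reaching p of 0.001, with 0.92 for PHGDH, 0.82 for PSAT1 and 0.62 for PSPH. SHMT2, CBS and PYCR1 had 0.10, 0.07 and -0.01. The list of amino acid transporters had 0 of 16 genes with a named probe set and was not analysed here.

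The promoter of ASNS is shown because it holds the letters TGATGNAAN, the core of the element through which ATF4 and its partners bind amino acid response genes. It is the promoter of 1 of 2 starts in the table and is given 5′ to 3′ on the strand of the gene from 250 bases before to 50 after the start (RefSeq, GRCh38.p14, chr7:97872359-97872658, minus strand), with the matching letters in capitals, 68 bases before the start.
ASNS: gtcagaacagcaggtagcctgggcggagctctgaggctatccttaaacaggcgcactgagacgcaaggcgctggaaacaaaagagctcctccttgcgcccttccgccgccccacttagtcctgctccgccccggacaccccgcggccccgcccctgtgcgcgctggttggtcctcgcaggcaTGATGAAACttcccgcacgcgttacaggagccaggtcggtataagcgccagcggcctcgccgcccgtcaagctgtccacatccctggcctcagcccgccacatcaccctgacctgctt
Searched on both strands, these letters occurred in 3.61% of all 35116 RefSeq promoters of that length. Here and below, a gene counts once if any of its promoters has the letters, while the background counts each promoter. Shares of genes and of promoters are therefore unlike units. Of the 5 synthesis genes with a promoter in the table, 1 had them, and of the 55 genes with a promoter among those higher at p under 0.001, 2 had them (3.64%). A match is a description of the sequence and not a measured binding site.

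Some stress genes downstream of ATF4 were higher as well. Of 12 measured, 2 were higher at p under 0.001 (background 0.524%), and 7 were higher (background 5.55%) and 0 lower (background 9.8%) at p under 0.05, with a median of 0.48. GDF15, a secreted stress cytokine, had 7.53 and 7.22 with shRNA1, 8.69 and 8.50 with shRNA2, and 8.67 and 8.83 in vector cells. Here shRNA1 alone was low, and shRNA2 lay at the vector level (difference between the shRNAs 1.22, standard error 0.17, adjusted p = 0.0612). DDIT4, an inhibitor of the growth kinase mTORC1, had 9.15 and 9.33 with shRNA1, 10.35 and 10.47 with shRNA2, and 9.14 and 9.73 in vector cells, so that shRNA2 was the high group. DDIT3, which encodes CHOP, had a difference of 1.16, ATF4 itself 0.53, TRIB3 0.48 and FGF21 -0.24. Against vector this list had a median of -0.28 with shRNA1 and -0.04 with shRNA2.

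No cytosolic tRNA synthetase reached p of 0.001, but 6 of 17 were higher at p under 0.05 (background 5.55%) and 1 was lower (background 9.8%), with a median of 0.46. The largest differences were 0.71 for NARS1 (95% interval 0.29 to 1.12), 0.65 for GARS1 and 0.63 for EPRS1, and the lower gene was HARS1 with -0.67. Against vector the synthetases had a median of -0.14 with shRNA1 and 0.03 with shRNA2. NARS1 had -0.97 with shRNA1 and -0.27 with shRNA2, and HARS1 had -0.11 and -0.78. The letters TGATGNAAN occurred in the promoters of 7 of 14 synthetases in the table beside 3.61% of all promoters. The matches of NARS1 and GARS1, which had the largest differences, and of CARS1 and MARS1 are shown with their flanks, read on the strand that carries the letters (RefSeq, GRCh38.p14).
NARS1, chr18:57621804-57621832, minus strand: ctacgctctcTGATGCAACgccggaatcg
GARS1, chr7:30594834-30594862, minus strand: gctcggagcaTGATGAAATcgccgcgtaa
CARS1, chr11:3057408-3057436, plus strand: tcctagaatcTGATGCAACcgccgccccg
MARS1, chr12:57488053-57488081, minus strand: aatccctcgcTGATGCAACcggaaccggc
The differences of CARS1 and MARS1 were 0.53 and 0.49. Of the stress genes, ATF3, FGF21 and JDP2 had the letters, with differences of 0.43, -0.24 and 0.29, and 0 of these 3 reached p of 0.001.

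Other stress lists gave mixed values. The list of the unfolded protein response had 0 of 9 members at p under 0.001 and a median of 0.09, with XBP1 at 0.65 and HYOU1, a chaperone of the endoplasmic reticulum, at -0.47. The heat shock list had 0 of 7 and a median of -0.03. Of 10 hypoxia response genes, 1 was higher at p under 0.001 (background 0.524%), ANKRD37 with 0.82, and 4 were at p under 0.05 (background 5.55%), with a median of 0.46. With centred or quantile-normalized arrays 2 were at p under 0.001. BNIP3, a mitochondrial gene induced by low oxygen, had 1.02, NDRG1 0.80 and VEGFA -0.12.

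**Figure D3:**
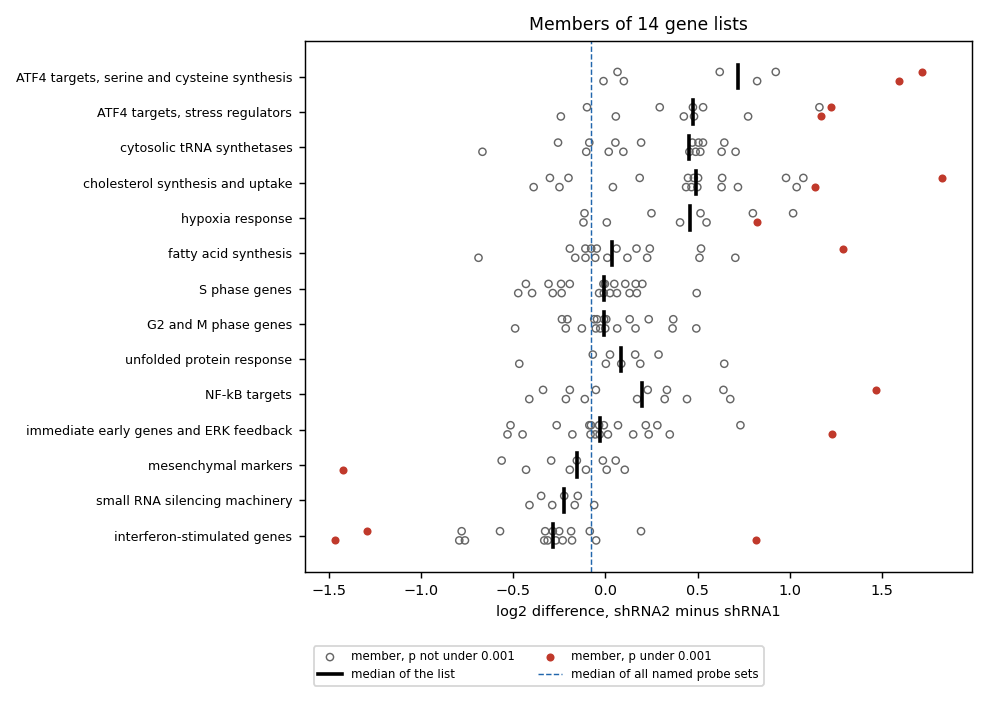
Log2 difference of shRNA2 minus shRNA1 (horizontal axis) for each measured member of 14 gene lists, with members at p under 0.001 in red, the list median as a black bar and the median of all named probe sets, -0.08, as a dashed line. The medians of ATF4 targets, tRNA synthetases, cholesterol and hypoxia genes lie between 0.46 and 0.72, and that of interferon-stimulated genes at -0.29.

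Several cholesterol genes were also higher with shRNA2 than with shRNA1. The enzymes of this pathway are switched on together by the SREBP factors when sterols are low, and INSIG1 holds these factors in the endoplasmic reticulum when sterols are plentiful. Of 20 measured members, 2 were higher at p under 0.001 (background 0.524%), and 11 were higher (background 5.55%) and 1 lower (background 9.8%) at p under 0.05, with a median of 0.49. INSIG1 had 8.85 and 8.85 with shRNA1, 10.79 and 10.57 with shRNA2, and 11.52 and 11.33 in vector cells. The shRNA1 arrays were the low group and the shRNA2 arrays lay below vector but near it, with a difference between the shRNAs of 1.83 (standard error 0.16, adjusted p = 0.0515), a 3.55-fold higher signal.

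Against vector, INSIG1 had a difference of -2.57 (limma adjusted p = 0.00129) for shRNA1 and of -0.74 (limma adjusted p = 0.0624) for shRNA2, where 1.87% and 2.57% of all probe sets were called after adjustment. Signed differences from vector, here and throughout, run opposite to those in the study's own list of fold changes. STARD4, a carrier of cholesterol between membranes, had 8.60 and 8.59 with shRNA1, 9.67 and 9.80 with shRNA2, and 10.18 and 10.41 in vector cells. Its difference was 1.14 (standard error 0.16), and again shRNA1 was the low group. HMGCS1, which makes the substrate of HMG-CoA reductase, had 6.94 and 7.43 with shRNA1, 8.11 and 8.22 with shRNA2, and 9.84 and 10.09 in vector cells. It fell against vector with both hairpins, and the difference between them was 0.98 (95% interval 0.50 to 1.46). MSMO1, IDI1 and SQLE, further enzymes of the pathway, had 1.04, 0.72 and 0.63. Over the whole list, the median difference from vector was -1.26 with shRNA1 and -0.62 with shRNA2.

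Fatty acid genes gave 1 such member (background 0.524% higher at p under 0.001). SCD, the desaturase that makes oleic acid, was that member of 18 at p under 0.001, with 11.58 and 11.52 with shRNA1, 12.99 and 12.67 with shRNA2, and 13.32 and 13.07 in vector cells. Its difference was 1.29 (standard error 0.18, adjusted p = 0.0594) and shRNA1 was the low group. FASN had -0.05, ACACA 0.01 and ACLY, which supplies the acetyl-CoA, -0.69, and the median of the list was 0.04.

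Interferon-stimulated genes were on the lower side with shRNA2. These genes are switched on when interferon binds its receptor, and many of their products act against viral RNA. Of 19 measured, 2 were lower (background 0.47%) and 1 higher (background 0.524%) at p under 0.001, 6 lower at p under 0.05 (background 9.8%), and 17 had a difference below 0 (15 with centred or quantile-normalized arrays), with a median of -0.29. Among all 12695 protein-coding probe sets, 7638 lay below 0 (5643 with centred and 6367 with quantile-normalized arrays). IFI44 had 8.66 and 8.94 with shRNA1, 7.38 and 7.28 with shRNA2, and 7.95 and 7.99 in vector cells. The 3 groups did not overlap, vector lay between the hairpins, and the difference was -1.47 (standard error 0.16, adjusted p = 0.0515). OASL, a relative of the oligoadenylate synthetases, had 9.54 and 9.73 with shRNA1, 8.46 and 8.22 with shRNA2, and 9.13 and 9.25 in vector cells. It showed the same order, with a difference of -1.30 (standard error 0.16).

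IFIT3, ISG20 and IFIT2 had -0.79, -0.78 and -0.76, each with p under 0.05, while ISG15 had -0.27, IFIT1 -0.33 and MX2 -0.08. DDX60, a helicase induced by interferon that was not in the list, had 9.43 and 9.38 with shRNA1, 8.36 and 8.36 with shRNA2, and 8.50 and 8.55 in vector cells, a difference of -1.05. The exception was XAF1, an interferon-induced gene that favours cell death, with 8.74 and 8.85 with shRNA1, 9.60 and 9.63 with shRNA2, and 8.81 and 8.82 in vector cells. Here shRNA2 alone was high, by 0.82. Against vector the list had a median of -0.04 with shRNA1 and -0.35 with shRNA2.

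The core of the interferon-stimulated response element, taken as GAAA, any 2 bases and GAAA again, was searched in the promoters on both strands. These letters occurred in 10 of the 14 listed genes with a promoter in the table (71.4%), beside 3.57% of all promoters, and in 3 of 30 genes lower at p under 0.001 (IFI44, DDX60 and RNF31) and 3 of 55 higher (CNGA1, EDN1 and VCAM1). The promoter of IFI44, the listed gene with the largest difference, is shown for 1 of its 2 starts, with the letters in capitals on the strand of the gene, where they read as the reverse complement (RefSeq, GRCh38.p14, chr1:78649539-78649838, plus strand).
IFI44: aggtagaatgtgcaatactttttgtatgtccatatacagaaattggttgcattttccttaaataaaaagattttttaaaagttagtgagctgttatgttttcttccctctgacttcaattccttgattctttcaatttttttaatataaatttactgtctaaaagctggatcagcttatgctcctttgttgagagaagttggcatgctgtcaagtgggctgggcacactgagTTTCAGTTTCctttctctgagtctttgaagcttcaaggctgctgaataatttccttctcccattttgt
DDX60 had 2 matches, shown with their flanks on its own strand.
DDX60, chr4:168318821-168318850, minus strand: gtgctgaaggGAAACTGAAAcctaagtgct
DDX60, chr4:168318786-168318815, minus strand: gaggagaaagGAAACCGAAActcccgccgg
ISG15, IFIT1 and RSAD2 also had the letters, and their differences of -0.27, -0.33 and -0.23 did not reach p of 0.05.

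**Figure D4:**
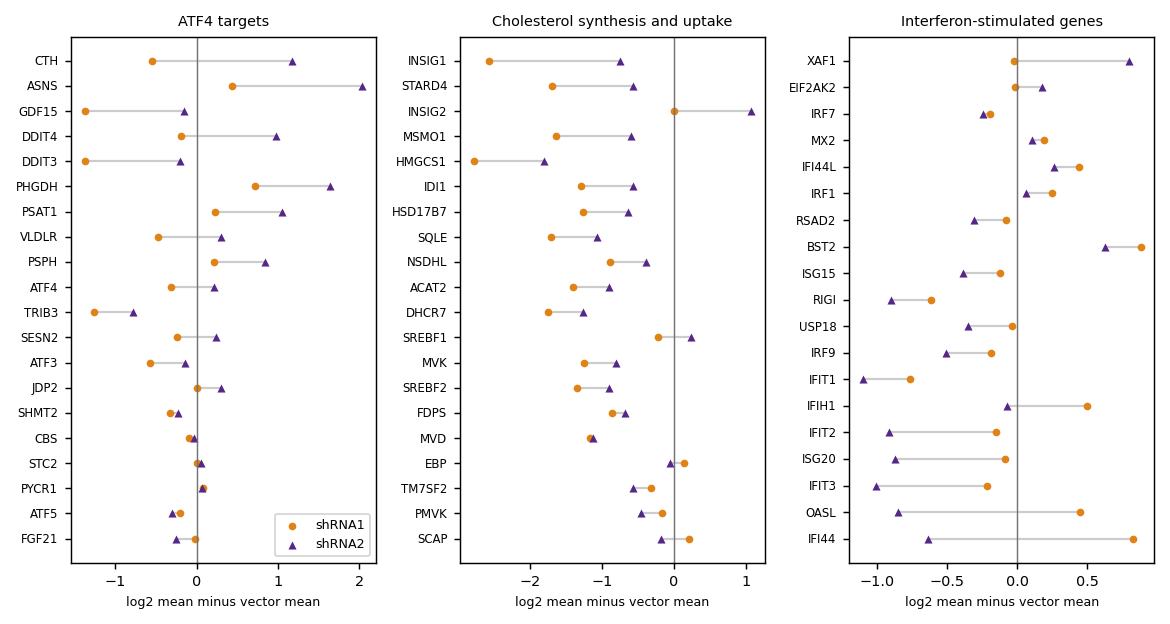
Mean of the shRNA1 (orange circles) and shRNA2 (purple triangles) arrays minus the vector mean (horizontal axis, log2) for members of 3 groups of lists, ordered by the difference between the hairpins; both are taken from the same 2 vector arrays. Most cholesterol genes lie left of 0 with both hairpins and further left with shRNA1, while most interferon-stimulated genes lie further left with shRNA2.

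Several receptor genes were higher with shRNA2. FPR1, a receptor that guides neutrophils toward formylated bacterial peptides, had 5.66 and 6.55 with shRNA1, 7.90 and 7.98 with shRNA2, and 5.47 and 5.98 in vector cells. Vector and shRNA1 overlapped and shRNA2 alone was high, by 1.83 (standard error 0.31). F2RL2, which encodes the protease-activated receptor PAR3, had 6.88 and 7.10 with shRNA1, 8.03 and 8.16 with shRNA2, and 9.76 and 9.63 in vector cells. MERTK, a receptor kinase for the uptake of dying cells, had 6.95 and 6.88 with shRNA1, 7.94 and 7.79 with shRNA2, and 9.24 and 9.38 in vector cells. Both fell against vector with both hairpins, and shRNA2 lay between shRNA1 and vector, by 1.10 and 0.95 above shRNA1.

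Those were the 3 of 21 receptor genes at p under 0.001, all higher (background 0.524%), and the median of that list was 0.02. FPR2, a related receptor, had 0.93 and the chemokine receptor CXCR4 0.86 (95% interval 0.39 to 1.33), while FPR3 had -0.21 and CCR7 -0.64. LTB4R, the receptor for leukotriene B4, was lower, with 8.65 and 8.40 with shRNA1, 7.11 and 7.23 with shRNA2, and 8.21 and 8.23 in vector cells. Here shRNA2 alone was low, with a difference of -1.35.

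Of 19 secreted cytokines and growth factors, 2 were higher (background 0.524%) and 1 lower (background 0.47%) at p under 0.001, with a median of -0.12. IL18, an inflammatory cytokine, had 6.80 and 7.07 with shRNA1, 8.31 and 8.58 with shRNA2, and 9.19 and 9.63 in vector cells, with a difference of 1.51 (standard error 0.21). EDN1, which encodes the vasoconstrictor endothelin 1, had 8.69 and 8.69 with shRNA1, 10.03 and 9.98 with shRNA2, and 10.75 and 10.97 in vector cells, with a difference of 1.32 (standard error 0.15). Both genes had their lowest values with shRNA1 and shRNA2 in the middle. NRG1, a ligand of the ErbB receptors, had 9.49 and 9.28 with shRNA1, 8.49 and 8.40 with shRNA2, and 9.32 and 9.10 in vector cells, so that shRNA2 alone was low, with a difference of -0.94. The inhibitor of activins FST had a difference of -0.50 and fell against vector with both.

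VCAM1, an adhesion molecule for leukocytes, was the only NF-kB target of 14 at p under 0.001 (background 0.524% higher and 0.47% lower). It had 5.50 and 5.54 in vector cells, 7.40 and 7.54 with shRNA1, and 9.21 and 8.66 with shRNA2. It rose against vector with both hairpins and was 1.47 higher with shRNA2 than with shRNA1 (standard error 0.21). SOST, which encodes the Wnt antagonist sclerostin, followed the same order, with 6.76 and 6.40, then 7.96 and 7.50, then 9.38 and 9.37, a difference of 1.64 between the hairpins. MILR1, an inhibitory receptor of mast cells, had 7.69 and 8.02 with shRNA1, 9.54 and 9.49 with shRNA2, and 8.96 and 9.30 in vector cells. LAPTM5, a lysosomal membrane protein of blood cells, had 10.69 and 10.50, 12.16 and 11.95, and 10.54 and 10.59 in the same order, so that shRNA2 alone was high, by 1.46.

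CNGA1, a subunit of the cyclic nucleotide-gated channel of rod photoreceptors, had 5.24 and 5.57 with shRNA1, 7.43 and 7.31 with shRNA2, and 5.15 and 4.87 in vector cells. The shRNA2 arrays alone were high, by 1.97 (standard error 0.18, adjusted p = 0.0515). The 5 other measured members of that channel family, CNGA2, CNGA3, CNGA4, CNGB1 and CNGB3, ranged from -0.46 to 0.00. PSG1, a pregnancy-specific glycoprotein of a family of close copies, had 3.43 and 3.30, 5.11 and 5.74, and 3.40 and 3.73 in the same order, a difference of 2.07. PSG5 had 0.95 and the 8 other measured copies ranged from -0.36 to 0.31, and probes can be shared within this family. COXFA4L3, the current symbol of C15orf48, had 6.26 and 6.70 with shRNA1, 8.27 and 8.50 with shRNA2, and 7.21 and 7.64 in vector cells, with vector in the middle and a difference of 1.91.

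**Figure D5:**
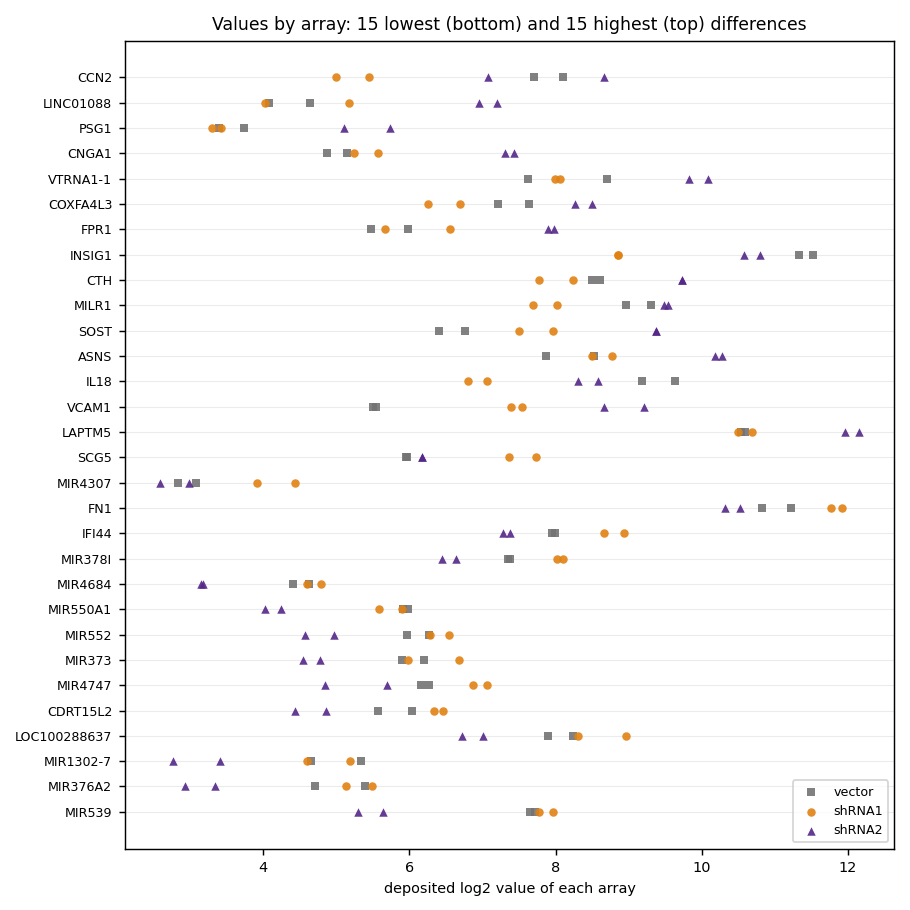
Deposited log2 value of each of the 6 arrays (horizontal axis) for the 15 genes with the highest (top) and the 15 with the lowest (bottom) difference of shRNA2 minus shRNA1 at p under 0.001; squares are vector, circles shRNA1 and triangles shRNA2. No triangle overlaps a circle, because separate shRNA groups were required of the genes shown. The squares lie beside the circles for MIR539 and CNGA1, beside the triangles for SCG5, and between them for FN1 and IFI44.

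FN1, the matrix protein fibronectin, was lower with shRNA2. It had 11.92 and 11.76 with shRNA1, 10.52 and 10.32 with shRNA2, and 11.22 and 10.82 in vector cells. The 3 groups did not overlap, vector lay between, and the difference was -1.42 (standard error 0.19, adjusted p = 0.0594), a 2.68-fold lower signal. It was the only mesenchymal marker of 11 at p under 0.001 (background 0.524% higher and 0.47% lower). VIM had -0.19, CD44 -0.56 and SNAI2 -0.43, and ZEB1 had 0.11.

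Of 16 epithelial markers, PKP2, a plakophilin of desmosomes, was higher at p under 0.001 (background 0.524%). It had 9.14 and 8.90 with shRNA1, 9.92 and 9.85 with shRNA2, and 10.74 and 10.62 in vector cells. EPCAM had a difference of 1.16 and OCLN of 0.71, while DSP had -0.26, and the median of the list was 0.08. SCG5, a chaperone of a prohormone convertase, had 7.36 and 7.74 with shRNA1, 6.18 and 6.17 with shRNA2, and 5.97 and 5.95 in vector cells. Here shRNA1 alone was high, and shRNA2 lay near vector. TFF1, a luminal secreted peptide, had -1.41 (95% interval -2.18 to -0.63) with p above 0.001.

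CCN2 and ANKRD1, which answer to YAP and TAZ, were both higher with shRNA2. ANKRD1 had 11.39 and 11.48 with shRNA1, 12.29 and 12.37 with shRNA2, and 13.01 and 13.03 in vector cells, a difference of 0.90 with shRNA2 in the middle. CCN2 had a pair of probe sets that did not agree in size. The dimmer one, which gave the largest difference of all at 2.65 (standard error 0.47), had 5.45 and 5.00 with shRNA1, 7.08 and 8.67 with shRNA2, and 7.70 and 8.11 in vector cells, so that the shRNA2 arrays were far apart. The brighter one had 11.08 and 10.89, 11.36 and 11.65, and 12.38 and 12.39 in the same order, a difference of 0.52. Of the 8 measured targets of YAP and TAZ, ANKRD1 was the only one at p under 0.001 by its brightest probe set. The background was 0.524% higher and 0.47% lower, and the median of the list was 0.02.

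DUSP5, a nuclear phosphatase that ERK induces and that inactivates ERK, had 7.58 and 7.53 with shRNA1, 8.71 and 8.86 with shRNA2, and 9.79 and 9.85 in vector cells. It fell against vector with both hairpins and was 1.23 higher with shRNA2 (standard error 0.15, adjusted p = 0.0553). Of 21 immediate early and ERK feedback genes, DUSP5 alone was at p under 0.001 (background 0.524% higher and 0.47% lower). DUSP6 had 0.73, DUSP1 0.28 and FOSL1 -0.52, and the median was -0.03.

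Long noncoding RNAs differed in both directions. LINC01061 was lower at p under 0.001 with 6 of its 7 probe sets, whose differences ranged from -1.28 to -0.45 over all 7. Its probe set with the largest difference had 11.75 and 11.79 with shRNA1, 10.61 and 10.38 with shRNA2, and 11.14 and 11.35 in vector cells, with vector between. LINC01088 had 4.02 and 5.18 with shRNA1, 7.20 and 6.95 with shRNA2, and 4.09 and 4.64 in vector cells, a difference of 2.47 (standard error 0.37) in which shRNA2 alone was high. Another of its probe sets had 1.76, and the 3 others 0.40, 0.21 and 0.13. Over 1595 probe sets of long noncoding RNAs, 17 (1.07%) were lower and 4 (0.251%) higher at p under 0.001, beside 0.516% and 0.509% over all probe sets. With centred arrays 11 were lower and 4 higher, and 6 of the 17 are the probe sets of LINC01061.

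The vault RNAs, short transcripts of RNA polymerase III, were measured with 4 probe sets. VTRNA1-1 had 8.06 and 7.99 with shRNA1, 10.09 and 9.82 with shRNA2, and 8.71 and 7.62 in vector cells, a difference of 1.93 (standard error 0.33). VTRNA1-2 had 1.33, VTRNA2-1 1.18 and VTRNA1-3 0.15. The shRNA2 arrays were the high group in VTRNA1-1 and VTRNA1-2, and vector and shRNA1 overlapped in VTRNA1-1.

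The genes that cut and load small RNAs showed no member at p under 0.001. All 7 measured, among them XPO5 (-0.41, 95% interval -0.88 to 0.06) and DGCR8 (-0.35, 95% interval -0.73 to 0.03), had a difference below 0 (6 of 7 with centred arrays), and the median was -0.22 beside -0.07 over all genes. For comparison, 7638 of 12695 protein-coding probe sets lay below 0 (5643 with centred arrays). The part of these 7 genes in the microRNA differences was not tested.

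The vector arrays served to say which hairpin had moved. The vector mean was placed on a line from the shRNA1 mean at 0 to the shRNA2 mean at 1. Under 0.25 it was called at the shRNA1 end, over 0.75 at the shRNA2 end, and under -0.5 or over 1.5 both hairpins were called on the same side of vector. Of the 82 higher probe sets, 28 had vector at the shRNA1 end, so that shRNA2 had moved (ASNS, CNGA1, FPR1), 16 had it at the shRNA2 end (INSIG1, SCD, GDF15), 20 had it between, and in 18 both hairpins lay on the same side (EDN1, IL18, VCAM1).

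Of the 83 lower probe sets, 35 had vector at the shRNA1 end (MIR539, LTB4R, NRG1), 6 at the shRNA2 end (SCG5, MIR4307) and 42 between (IFI44, FN1, OASL). By these cutoffs 0 were called with both hairpins on the same side. A probe set called at an end can still have both hairpin means on the same side of vector, as INSIG1 and SCG5 do. These are positions of means, and the same arrays chose the probe sets, so they are given without a test.

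Genes that moved far from vector with both hairpins could still be close to each other. MMP1, the interstitial collagenase, had 5.00 and 5.18 with shRNA1 and 5.13 and 5.10 with shRNA2, against 10.58 and 9.09 in vector cells. The difference between the hairpins was 0.03, with a 95% interval of -0.96 to 1.01 that the spread of the vector arrays widens. OLR1, a receptor for oxidized lipoprotein, had 4.59 and 4.24 with shRNA1 and 4.18 and 4.69 with shRNA2, a difference of 0.02 (95% interval -0.52 to 0.56). NRP1, which lies next to LincIN, had 11.60 and 11.37 with shRNA1, 11.36 and 11.31 with shRNA2, and 10.66 and 10.62 in vector cells, a difference of -0.15 (95% interval -0.51 to 0.21).

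Some of the genes with large differences from vector lay apart between the hairpins as well, although none passed adjustment. TMEM156 had 6.09 and 5.90 with shRNA1, 6.90 and 6.90 with shRNA2, and 9.73 and 9.72 in vector cells, a difference of 0.91 with p under 0.001. SLAMF7 had 0.66 (95% interval 0.33 to 1.00), CDK15 0.67 and APCDD1L -0.72, while FGF5 had 0.47 (95% interval -0.19 to 1.12), TLR4 0.40 and DUSP1 0.28 (95% interval -0.26 to 0.83). For all named probe sets the 95% interval reached a median of 0.426 to either side, so a difference below that size was not detectable for a typical gene.

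The cell cycle lists gave no member at p under 0.001. The 21 S phase genes had a median of -0.01, with 0 higher and 2 lower at p under 0.05. The 19 genes of G2 and M phase had a median of -0.01, with 1 higher and 1 lower. The background at that threshold was 5.55% higher and 9.8% lower. CDC20, an activator of the anaphase-promoting complex, had -0.49 and CDC25C, a phosphatase of mitotic entry, 0.49. Of 10 p53 targets none reached p of 0.001, with a median of -0.09, CCNG1 at 0.90 (95% interval 0.09 to 1.72) and RRM2B at 0.74. Of 9 housekeeping genes, RPS18 had 0.53 with p under 0.05 (background 5.55% higher) and GAPDH 0.01, and the median was 0.01.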

How the data were processed

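Gene expression was measured on Affymetrix Human Gene 2.0 ST arrays, 2 each for vector, shRNA1 and shRNA2. The authors deposited log2 values. The submitters' processing notes name RMA in the Affymetrix Expression Console without a version, a method of background correction, quantile normalization and summary of the probes of a probe set. The values were used as deposited, and 0 columns of other samples were left out.

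Group means of the 6 arrays were fitted by lmFit and eBayes of limma 3.58.1 in R 4.3.3, with 3 residual and 4.16 prior degrees of freedom. The contrast was shRNA2 minus shRNA1, with Benjamini-Hochberg adjustment across all probe sets that have 1 gene symbol. The code was tested on simulated data. RNA came from 2 independent experiments, but the labels neither tie an array to an experiment nor say that replicates came from separate cultures. The p-values therefore measure only the spread between these arrays, which may be technical, and 2 arrays a group limit the precision. Gene lists (29, of which 1 had no measured member) took the probe set with the highest mean of each gene. The members and lists were chosen with earlier results of these data known.

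Named genes were the 15 highest and 15 lowest differences at p under 0.001 with separate groups (1 probe set per gene, that with the largest difference), up to 4 members of each list at p under 0.001 or else the 2 with the largest difference, genes the study or earlier results name, and 14q32 neighbours of MIR539. Other genes were named after their values were seen, among them MIR412, MIR376A1, MIR376B, MIR485, MIR550A2, MIR550A3, MIR98, MIR9-1, MIR9-3, DDX60, LTB4R, FPR2, LINC01061, the other probe sets of CCN2 and LINC01088, the vault RNAs, the PSG family and list members such as PHGDH, DDIT3, IFIT3 and EPCAM. Promoters and microRNAs were read from RefSeq tables. Alternatives were the 4 shRNA arrays alone, a two-sample test, an intensity trend, a filter on dim probe sets, centring, quantile normalization, all probe sets, 1 probe set per gene, a replicate block and each shRNA array left out. Python 3.11.15, NumPy 2.4.6, pandas 2.3.3 and matplotlib 3.10.9 were used otherwise.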

Additional observations from a re-analysis of the deposited data

Results flagged for a closer look

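The effect against vector of MIR539 differed between the shRNAs by -2.41 on the log2 scale, tested as the contrast of shRNA2 with shRNA1 in limma (adjusted p = 0.0324). Against vector it had 0.18 with shRNA1 and -2.22 with shRNA2, and both shRNA2 arrays lay below the other 4.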

How the results depend on the processing

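The count of 1 after adjustment became 0 with the 4 shRNA arrays alone, 2 with a two-sample test per probe set, 15 with an intensity trend, 2 with arrays centred on their medians, 8 with all probe sets and 28 with 1 probe set per gene, and stayed at 1 with quantile normalization and without dim probe sets. The count of 165 at p under 0.001 became 46 with the two-sample test and 406 with all probe sets, of which 79 were among the 165, and lay between 119 and 172 in the other settings that use all arrays without a block. Leaving out each shRNA array in turn gave 0 each after adjustment and 27 to 136 at p under 0.001. All 165 probe sets kept their sign in every setting that tested them. This was fixed in advance in most settings, which keep the same group means. The shift of centring was smaller than these differences, and with an array left out the groups still do not overlap. At least 156 of the 165 kept p under 0.05 in the settings that tested all of them. MIR539 lost its call with the two-sample test, with the 4 arrays alone, with all probe sets and with any shRNA array left out. Labels give equal replicate numbers without saying what a number marks, and differences between replicates 1 and 2 correlated across probe sets at 0.626 for the vector and shRNA1 groups, at 0.145 for vector with shRNA2 and at 0.150 for the pair of shRNAs. As only 2 numbers exist and no label ties them to an experiment, the numbers were not read as pairs. With the replicate number as a block, 370 probe sets were called after adjustment (167 higher, 203 lower) and 348 at p under 0.001, all 165 among them. Arrays carry no detection call, so differences of dim probe sets, many microRNAs among them, rest on low signal. The causes of these changes were not tested.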
